A study of Mus musculus with 8 samples.

Results

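Elastic fibers and the microfibrils that scaffold them were described here through 10 genes, Eln, Fbn1, Fbn2, Mfap4, Mfap5, Fbln1, Fbln2, Fbln5, Efemp1 and Efemp2, taken as a fixed list of names for the parts their proteins play, with earlier results of these data known. All 10 were found by symbol among the 37979 genes listed. RNA was sequenced in 8 libraries from hindlimb skeletal muscle of Ai14+/-;SM22α-Cre+ mice of both sexes, aged 3 to 4 months, to compare pericytes with smooth muscle cells (SMCs). In these mice, both cell groups included, Cre recombinase is driven by the SM22α promoter and switches on the red fluorescent protein tdTomato from the Ai14 reporter, and the label stays on in the progeny of any cell that once used the promoter. Pericytes, the mural cells of capillaries, were sorted as PDGFRβ+tdTomato- cells (4 libraries), and SMCs, the contractile cells of larger vessels, as PDGFRβ+tdTomato+ cells (4 libraries). Cells positive for CD31 (endothelial) or CD45 (hematopoietic) and dead cells were gated out, the mice received no treatment, and several sorts were pooled into each library. The sort rests on 1 surface protein and 1 Cre line: PDGFRβ is also found on fibroblasts, and a pericyte with a history of SM22α promoter activity falls into the SMC gate.

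Elastic fibers give arteries, skin, lung and tendon sheaths their recoil. Their core is elastin, which is secreted as soluble tropoelastin and crosslinked by lysyl oxidases, and it is laid down on microfibrils built from fibrillins. Microfibril-associated proteins (MFAPs) decorate the microfibrils, and fibulins bring tropoelastin, crosslinking enzymes and microfibrils together. Vascular SMCs and fibroblasts are the cells best known for making this matrix, whereas pericytes lie inside the basement membrane of capillaries, which have no elastic lamina.

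The deposited values were FPKM (sequenced fragments, scaled to transcript length and to the mapped total of the library), a level corrected for length, so levels of different genes can be set side by side. No read counts were used here, so the depth behind a value is not known. Library sums of FPKM were 690247 to 1190435 in pericytes, with pericyte replicate 2 the highest, and 656405 to 737839 in SMCs. The step between low FPKM values put the depth of each library at 0.866 to 1.07 times the typical library. Between 12713 and 13194 genes reached 1 FPKM in each library. Differences were taken on log2(FPKM + 1), SMCs minus pericytes, on which a gene with little FPKM shows less than its true fold. They were tested with limma over 27414 genes, and q is the Benjamini-Hochberg adjusted p over all of them.

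All 10 genes were higher in SMCs, each with q below 0.05 in limma, and in each of them the lowest SMC library lay above the highest pericyte library. The 10 fold differences between group means in FPKM ran from 4.96 (Fbn1) to 14.5 (Mfap5). The median log2 fold change over the 10 genes was 3.06, against -0.02 over all genes tested. Across the genome 11.2% of the genes tested had q below 0.05 and were higher in SMCs, 10.6% were higher in pericytes, and 21.8% had q below 0.05 in either direction. Separation of the groups, every SMC library above every pericyte library, was found in 12.5% of all genes tested. The stricter call, q below 0.05 with a log2 fold change above 2, was met by 8 of the 10 genes, all but Fbn1 and Fbn2, against 2.66% of all genes in this direction and 3.24% in the other. Limma's treat, which tests directly against a log2 fold change of 2, left 1 of them, Efemp1. The genome-wide shares are over genes of every level. Among the 13612 genes averaging 1 FPKM or more, 19.5% were higher in SMCs, and 9 of the 10 genes, all but Fbn2, reached 1 FPKM in at least 4 libraries. In bulk libraries such as these, fewer cells of a type and less RNA per cell cannot be told apart.

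Summed over the 10 genes, FPKM came to 241, 228, 91.4 and 135 in pericyte replicates 1 to 4 and to 2454, 1705, 1632 and 1665 in SMC replicates 1 to 4. The sum was thus larger in every SMC library than in any pericyte library. It made up 0.0127% to 0.0349% of a pericyte library's FPKM and 0.233% to 0.333% of an SMC library's.

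**Figure D1:**
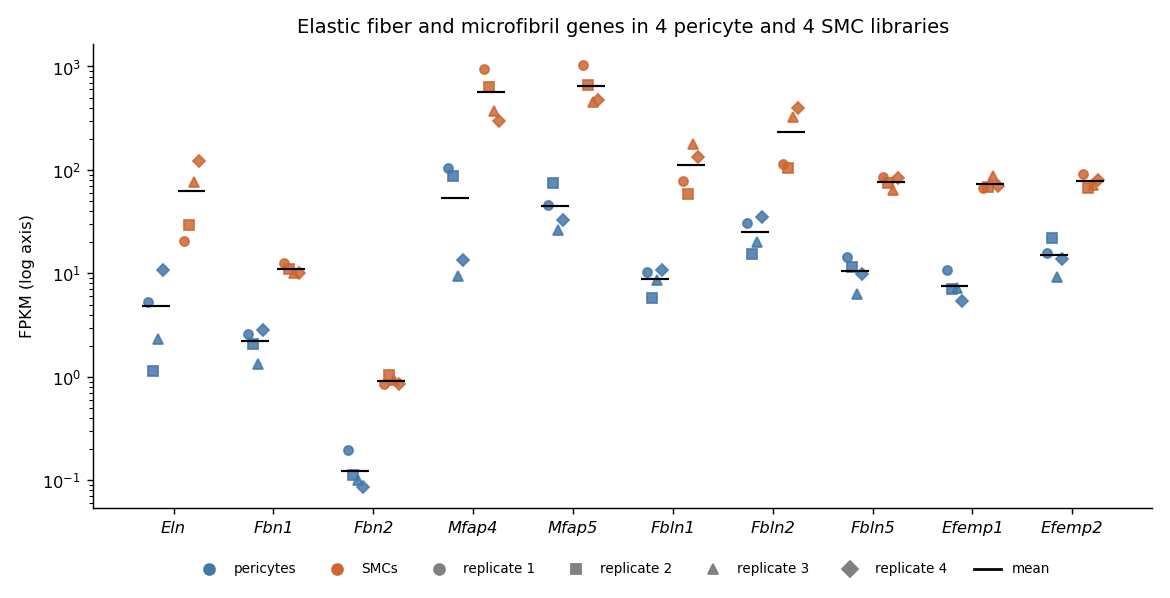
FPKM (log axis) of the 10 elastic fiber and microfibril genes in each of the 4 pericyte and 4 SMC libraries. Points are libraries, symbols are replicate numbers and bars are group means. In every gene the SMC points lie above the pericyte points, with Eln and Mfap4 the most spread in pericytes and Eln and Fbln2 in SMCs.

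Eln encodes elastin, the rubber-like core of the fiber (minus strand, chr5:135179651-135223111, NCBI Build 37). It had 5.34, 1.13, 2.34 and 10.7 FPKM in pericyte replicates 1 to 4 and 20.8, 29.3, 77.0 and 121 FPKM in SMC replicates 1 to 4. The groups did not overlap, but each was wide: SMC replicates 1 and 2 were the low ones and replicates 3 and 4 the high ones, and the lowest SMC library was 1.94 times the highest pericyte library. Mean FPKM was 4.89 ± 4.28 for pericytes and 62.0 ± 46.4 for SMCs (SD, n = 4 each), a 12.7-fold difference. The log2 fold change was 3.38 (SE 0.72, 95% interval 1.69 to 5.08, limma q = 0.0145). With a coefficient of variation of 87.6% in pericytes and 74.9% in SMCs, Eln was the most variable of the 10 genes in SMCs and second to Mfap4 (91.8%) in pericytes.

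Fibrillins are the large glycoproteins that polymerize into the microfibril itself. Fbn1 (fibrillin-1, the main fibrillin of adult tissue, minus strand, chr2:125126330-125333729, NCBI Build 37) had 2.59, 2.06, 1.34 and 2.82 FPKM in the pericyte replicates and 12.5, 11.1, 10.1 and 10.02 FPKM in the SMC replicates. The SMC libraries were tightly grouped, with a coefficient of variation of 10.6%, and the lowest was 3.55 times the highest pericyte library. The mean rose from 2.20 ± 0.656 FPKM to 10.9 ± 1.16 FPKM (SD, n = 4 each), 4.96-fold and 1.92 on the log2 scale (SE 0.16, 95% interval 1.53 to 2.30, limma q = 0.000259), just under the fold threshold of 2. The 250 bases before its transcription start, from RefSeq on GRCm38.p6, chr2:125506439-125506688 (minus strand), are shown because Fbn1 shared the group difference of the other genes. Capitals mark a GC box (GGGCGG, a site read by SP-family factors) 185 bases before the start, the 1 motif found among those searched.
Fbn1 promoter: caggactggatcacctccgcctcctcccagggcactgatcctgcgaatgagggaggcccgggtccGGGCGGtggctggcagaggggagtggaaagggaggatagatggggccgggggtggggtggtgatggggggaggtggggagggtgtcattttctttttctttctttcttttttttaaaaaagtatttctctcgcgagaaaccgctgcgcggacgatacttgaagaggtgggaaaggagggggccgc

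Fbn2 (fibrillin-2, known for its use in developing tissue) was the lowest of the 10 genes in both groups. It had 0.197, 0.113, 0.101 and 0.0857 FPKM in the pericyte replicates and 0.850, 1.05, 0.930 and 0.852 FPKM in the SMC replicates. The SMC libraries were close together (coefficient of variation 10.4%, against 40.3% in pericytes), the groups did not overlap, and SMCs had 7.42 times the pericyte mean (0.922 ± 0.0958 against 0.124 ± 0.0501 FPKM, SD, n = 4 each). On log2(FPKM + 1) the same difference was 0.77 (SE 0.06, 95% interval 0.63 to 0.92, limma q = 0.000208), because the added 1 is large beside the values; with 0.1 added instead it was 2.21. Fbn1 exceeded Fbn2 by 10.51 to 14.7 times in SMC libraries and by 13.1 to 32.9 times in pericyte libraries, so fibrillin-1 transcripts were the more abundant in all 8 libraries.

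The MFAPs were the most abundant of the 10 genes in SMCs and differed most on the log2 scale. Mfap4 encodes a fibrinogen-domain protein that binds elastin and fibrillin (plus strand, chr11:61298933-61302402, NCBI Build 37). It had 105, 87.8, 9.54 and 13.5 FPKM in the pericyte replicates and 955, 629.9, 369 and 294 FPKM in the SMC replicates. Replicates 1 and 2 were the high ones in both groups, and in pericytes they averaged 8.37 times replicates 3 and 4. Mean FPKM was 54.0 ± 49.5 for pericytes and 562 ± 299 for SMCs (SD, n = 4 each), 10.4-fold apart, and the log2 fold change was 3.87 (SE 0.86, 95% interval 1.85 to 5.90, limma q = 0.0173), the widest interval of the 10. Mfap5 encodes MAGP-2, which binds fibrillin and Notch ligands (plus strand, chr6:122455863-122479308, NCBI Build 37). It had 45.4, 75.5, 26.6 and 32.9 FPKM in the pericyte replicates and 1031, 662, 449.9 and 475 FPKM in the SMC replicates. Every SMC library was at least 5.96 times the highest pericyte library. The means of 45.1 ± 21.7 FPKM and 654 ± 268 FPKM (SD, n = 4 each) differed 14.5-fold, the largest ratio of the 10, with a log2 fold change of 3.86 (SE 0.39, 95% interval 2.95 to 4.77, limma q = 0.000525). Mfap4 and Mfap5 together made up 46.2% to 80.9% of the 10-gene sum in SMC libraries and 34.4% to 71.5% in pericyte libraries.

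Fbln1 and Fbln2 encode the long fibulins, which bind fibronectin, laminins and elastin at basement membranes and in vessel walls. Fbln1 (plus strand, chr15:85036379-85116965, NCBI Build 37) had 10.3, 5.72, 8.64 and 10.7 FPKM in the pericyte replicates and 77.6, 58.4, 179 and 134 FPKM in the SMC replicates. Pericyte libraries stayed within a narrow band, whereas SMC replicates 3 and 4 averaged 2.30 times SMC replicates 1 and 2. The mean went from 8.83 ± 2.25 to 112 ± 54.7 FPKM (SD, n = 4 each), 12.7-fold, with a log2 fold change of 3.42 (SE 0.37, 95% interval 2.55 to 4.30, limma q = 0.000755). Fbln2 (plus strand, chr6:91162449-91222534, NCBI Build 37) had 30.8, 15.6, 20.0 and 35.2 FPKM in the pericyte replicates and 113, 104, 324 and 395 FPKM in the SMC replicates. Here too SMC replicates 3 and 4 were the high ones, at 3.32 times replicates 1 and 2. Its means of 25.4 ± 9.13 and 234 ± 148 FPKM (SD, n = 4 each) differed 9.21-fold, with a log2 fold change of 2.98 (SE 0.51, 95% interval 1.77 to 4.18, limma q = 0.00594). Fbln2 exceeded Fbln1 in all 8 libraries, by 2.32 to 3.29 times in pericytes and by 1.46 to 2.95 times in SMCs.

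The 250 bases before the start of both long fibulin genes, from RefSeq on GRCm38.p6, are shown because these 2 genes varied together from library to library. They lie at chr15:85205699-85205948 (plus strand) for Fbln1 and at chr6:91212514-91212763 (plus strand) for Fbln2. Capitals mark a GC box on the minus strand (written CCGCCC) 16 bases before the start of Fbln2, and none of the motifs searched was found in the Fbln1 window.
Fbln1 promoter: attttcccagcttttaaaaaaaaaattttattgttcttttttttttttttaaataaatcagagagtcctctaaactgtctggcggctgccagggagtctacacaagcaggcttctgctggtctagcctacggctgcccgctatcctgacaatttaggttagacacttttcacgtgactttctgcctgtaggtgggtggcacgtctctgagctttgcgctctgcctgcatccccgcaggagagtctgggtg
Fbln2 promoter: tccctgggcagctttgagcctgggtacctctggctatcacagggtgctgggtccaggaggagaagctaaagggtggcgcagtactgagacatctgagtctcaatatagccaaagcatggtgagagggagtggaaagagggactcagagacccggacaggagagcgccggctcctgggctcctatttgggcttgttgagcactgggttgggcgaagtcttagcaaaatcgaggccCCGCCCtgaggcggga

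The short fibulins, Fbln5, Efemp1 (fibulin-3) and Efemp2 (fibulin-4), were the steadiest of the abundant genes, with SMC coefficients of variation of 13.0%, 12.7% and 13.8%. Fbln5 encodes fibulin-5, which tethers tropoelastin to microfibrils and to integrins (minus strand, chr12:102984775-103057265, NCBI Build 37). It had 14.4, 11.5, 6.36 and 9.83 FPKM in the pericyte replicates and 85.0, 74.4, 63.7 and 84.2 FPKM in the SMC replicates. The gap between the groups was wider than either group, and the log2 fold change was 2.80 (SE 0.23, 95% interval 2.26 to 3.33, limma q = 0.000218) between means of 10.52 ± 3.36 and 76.8 ± 10.02 FPKM (SD, n = 4 each). Efemp2 encodes the fibulin that brings lysyl oxidase to tropoelastin (plus strand, chr19:5473973-5481853, NCBI Build 37). It had 15.7, 22.0, 9.28 and 13.9 FPKM in the pericyte replicates and 91.5, 67.2, 71.8 and 80.2 FPKM in the SMC replicates. Its means of 15.2 ± 5.25 and 77.7 ± 10.7 FPKM (SD, n = 4 each) differed 5.11-fold, with a log2 fold change of 2.33 (SE 0.24, 95% interval 1.77 to 2.89, limma q = 0.000592).

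Efemp1, whose protein binds the metalloproteinase inhibitor TIMP-3 (plus strand, chr11:28753204-28826743, NCBI Build 37), had the lowest q of the 10 genes. It had 10.8, 6.99, 7.20 and 5.47 FPKM in the pericyte replicates and 66.9, 68.6, 87.0 and 70.5 FPKM in the SMC replicates. The lowest SMC library was 6.20 times the highest pericyte library, the widest separation of the 10. Means of 7.61 ± 2.26 and 73.2 ± 9.31 FPKM (SD, n = 4 each) gave a log2 fold change of 3.13 (SE 0.19, 95% interval 2.70 to 3.57, limma q = 5.9e-05). The 250 bases before its start, from RefSeq on GRCm38.p6, chr11:28852955-28853204 (plus strand), are shown because this window held the 1 match to TGANTCA. Those letters, with any base allowed at N, were searched for the AP-1 element of JUN and FOS proteins. The match reads TGAATCA, and whether these proteins bind it was not tested. Capitals mark that match 154 bases before the start and a GC box on the minus strand 29 bases before the start.
Efemp1 promoter: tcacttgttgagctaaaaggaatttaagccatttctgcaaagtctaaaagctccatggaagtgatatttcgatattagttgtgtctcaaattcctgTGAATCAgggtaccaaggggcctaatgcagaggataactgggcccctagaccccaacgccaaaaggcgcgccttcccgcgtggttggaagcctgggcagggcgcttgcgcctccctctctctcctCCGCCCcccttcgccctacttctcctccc

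RefSeq promoter windows of 300 bases, 250 before to 50 after the start, were on hand for 6 of the 10 genes: Fbn1, Fbln1, Fbln2, Fbln5, Efemp1 and Efemp2, but not Eln, Fbn2, Mfap4 or Mfap5. A total of 6 motifs were searched on both strands. The GC box GGGCGG was in 5 of 6 windows, all but Fbln1, against 35.7% of 32841 promoters in the table. The CCAAT box (CCAAT) was in 1 window, that of Fbln5, against 37.4% of promoters. A match to the AP-1 search letters TGANTCA was in 1 window, that of Efemp1, against 7.81% of promoters. The TATA box (TATAAA, 13.6% of promoters), the TEAD element (CATTCC, 14.7%) and the CArG box of serum response factor (1.63%) were in none of the 6, which says only that these letters were absent from these windows. A GC-rich window holds a GC box more readily, and GC content was 51.7% to 65.7% in the 6 windows against a median of 52.7% over all promoters.

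By mean FPKM, the SMC order was Mfap5, Mfap4, Fbln2, Fbln1, Efemp2, Fbln5, Efemp1, Eln, Fbn1 and Fbn2. Most neighbours in this order had overlapping libraries: the steps that did not overlap were from Eln to Fbn1 and from Fbn1 to Fbn2. The pericyte order was Mfap4, Mfap5, Fbln2, Efemp2, Fbln5, Fbln1, Efemp1, Eln, Fbn1 and Fbn2, in which the step from Fbn1 to Fbn2 was the 1 step without overlap. The MFAPs and Fbln2 led, and Eln and the fibrillins came last, in both groups.

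Within a group the 10 genes differed in which libraries were high. In SMCs, replicates 3 and 4 lay above replicates 1 and 2 without overlap for 4 genes: Eln (3.95-fold), Fbln2, Fbln1 and, by a small margin, Efemp1 (1.16-fold). They lay below for 3 genes: Mfap4 (2.39-fold lower), Mfap5 (1.83-fold lower) and Fbn1 (1.17-fold lower). Fbn2, Fbln5 and Efemp2 showed neither, and their highest SMC library was 1.24, 1.34 and 1.36 times the lowest. The ratio of Mfap5 to Eln shows the contrast: it was 49.7, 22.6, 5.84 and 3.93 in SMC replicates 1 to 4 and 8.50, 66.7, 11.3 and 3.07 in the pericyte replicates. In pericytes, 5 of the 10 genes were lower in replicates 3 and 4 than in replicates 1 and 2 without overlap, and none was higher. Such splits were common: over the 27414 genes tested, SMC replicates 3 and 4 lay above replicates 1 and 2 for 19.5% and below for 28.0%, and pericyte replicates 3 and 4 lay above for 14.8% and below for 25.8%. Over the 13612 genes averaging 1 FPKM or more, these shares were 31.2%, 33.6%, 24.5% and 27.4%. The counts of 4 and 3 of 10 in SMCs are thus near the share over all genes and say nothing particular about the 10 genes. This split between replicates was seen in the values, is no group of the labels, and was not tested. The study names individual differences and batch effects as possible sources of variation among its replicates.

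Correlations of the deviations from group means over the 8 libraries, given as a description of points that share libraries and depth, sorted the genes further. Eln went with Fbln2 (r = 0.94) and Fbln1 (0.81), and Fbln1 with Fbln2 (0.93). Mfap4 went with Mfap5 (0.85), Fbln5 (0.79) and Efemp2 (0.75), and Mfap5 with Efemp2 (0.82). Eln and Mfap5 deviated in opposite directions (-0.69). Both sets were higher in SMCs than in pericytes, so the genes shared the group difference and not the variation around it.

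**Figure D2:**
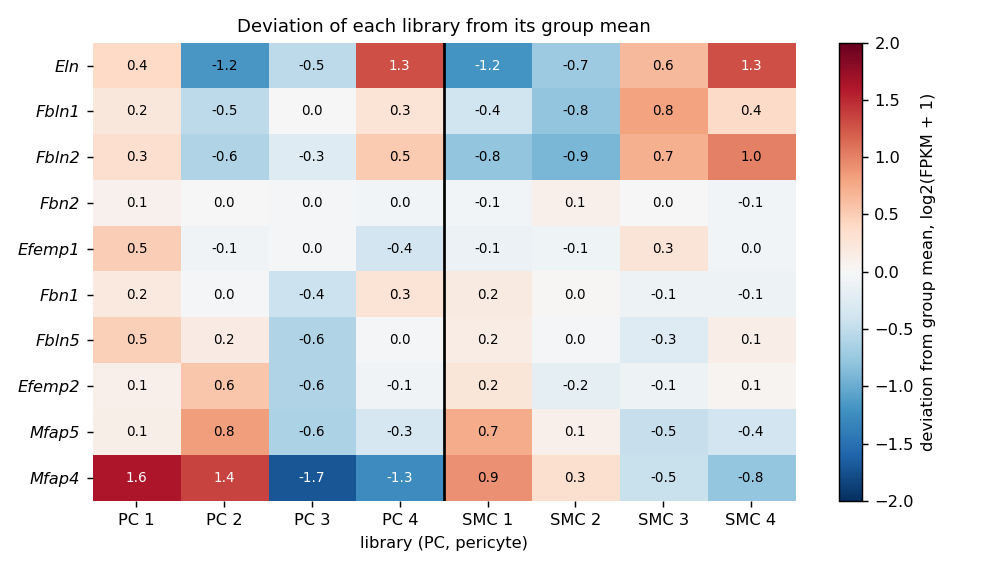
Deviation of each library from its group mean, on log2(FPKM + 1), for the 10 genes (rows) in the pericyte (PC) and SMC libraries (columns). Eln, Fbln1 and Fbln2 are red in SMC 3 and SMC 4 and blue in SMC 1 and SMC 2, Mfap4 and Mfap5 are the reverse, and the short fibulins stay near 0 in SMCs.

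Several marker lists were split between the same replicates. Summed smooth muscle markers (10 genes, led by Acta2 and Tagln) reached 1796 to 2071 FPKM in SMC replicates 1 and 2 and 3506 to 5841 FPKM in SMC replicates 3 and 4. Pericyte (225 to 238 against 464 to 619 FPKM), endothelial (412 to 587 against 1038 to 1318 FPKM), Schwann cell (113 to 128 against 338 to 349 FPKM) and fibro-adipogenic sums (6700.3 to 7771 against 8159 to 9329 FPKM) were higher in replicates 3 and 4 as well. The fibro-adipogenic markers went both ways. Col1a1, Col1a2 and Col3a1 were 2.88, 2.40 and 2.18 times as high in SMC replicates 3 and 4 as in replicates 1 and 2. Most other markers not listed at 0 were lower there, among them Dpt (0.44 times), Pi16 (0.48 times), Cd34 (0.65 times) and Lum (0.70 times). The sums of skeletal muscle markers (71.7 to 90.4 against 54.3 to 62.3 FPKM) and of genes used by every cell (10236 to 11610 against 8260 to 9545 FPKM) were lower there, and tendon and leukocyte sums overlapped. Myf5 carried the skeletal muscle sum, with 44.6 and 35.8 FPKM in SMC replicates 1 and 2 and 6.12 and 9.10 FPKM in 3 and 4. Most other skeletal muscle markers were higher in replicates 3 and 4. Tendon markers split both ways. Scx (15.0-fold), Mkx (2.80-fold), Tnmd (2.77-fold), Kera (2.59-fold) and Chad (1.16-fold) were lower in replicates 3 and 4. Comp (3.20-fold), Cilp2 (1.92-fold), Fmod (1.72-fold) and Thbs4 (1.33-fold) were higher. The part of these cells in the split of the 10 genes was not tested. Set against the mean of the smooth muscle markers in the same library, Eln was level in all SMC libraries, at 0.03 ± 0.09 on log2(FPKM + 1) (SD, n = 4), and at -2.21 ± 0.84 in pericytes (SD, n = 4). Eln thus lay 2.24 log2 units lower against these markers in pericytes. Against the endothelial markers, Eln was at -0.21 ± 0.31 in SMCs and at -1.002 ± 0.74 in pericytes (SD, n = 4 each). It was wider in SMCs against the 14 fibro-adipogenic markers not listed at 0 in a group, at -1.94 ± 1.23, and at -2.93 ± 1.05 in pericytes (SD, n = 4 each). Against the tendon markers, Eln was at -1.95 ± 1.55 in SMCs and at -2.36 ± 1.47 in pericytes (SD, n = 4 each). With replicates 1 and 2 alone, an alternative chosen after seeing the data, Eln (log2 fold change 2.80, limma q = 0.0927), Fbln2 (2.25, q = 0.0545) and Fbn2 (0.76, q = 0.0539) kept their direction and missed the threshold, with 2 libraries a group.

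Next, the other genes of the elastic fiber pathway were read from 8 lists of 71 genes tested. Of these, 40 were higher in SMCs with q below 0.05 in limma, 8 were higher in pericytes (among them Dcn, whose call rests on SMC values that are all listed at 0) and 23 were not called, and the median log2 fold change was 1.47. The genome-wide shares above, 11.2% and 10.6%, are a background for these counts over genes of every level. Among the 13612 genes averaging 1 FPKM or more, 5331 had q below 0.05 in either direction, and 2650 (19.5% of the 13612) were higher in SMCs.

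Among microfibril-associated and emilin proteins, 7 of 13 were higher in SMCs and 1, Mfap1b, was higher in pericytes. Mfap2 (MAGP-1, the close relative of MAGP-2 on microfibrils) had a log2 fold change of 3.41 (q = 0.00889), and it had 422 and 265 FPKM in SMC replicates 1 and 2 but 169.6 and 120.4 FPKM in SMC replicates 3 and 4, the same side as Mfap4 and Mfap5. Fbln7, another fibulin, rose by 3.12 (q = 0.000228), Mmrn2, an endothelial emilin relative, by 2.46 (q = 0.0277) and Emilin1, which sits at the elastin surface, by 1.73 (q = 0.0173). Latent TGF-β binding proteins anchor stored TGF-β to fibrillin, and 3 of 4 were higher in SMCs: Ltbp4 (2.18, q = 0.0276), Ltbp1 (1.84, q = 0.00630) and Ltbp3 (1.53, q = 0.0199). Ltbp2 had a log2 fold change of 1.47 with q = 0.0706. With the replicate block, all 4 were called higher in SMCs. The count of 7 was 4 without pericyte replicate 2, 3 or 4 or without SMC replicate 4, Mfap1b was not called without pericyte replicate 1, 3 or 4, without SMC replicate 1 or 3, or with the replicate block, TPM scaling, a pseudocount of 0.1 or an intensity trend, and the count of latent TGF-β binding proteins was 1 without SMC replicate 3.

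Lysyl oxidases crosslink elastin, and 4 of 5 were higher in SMCs. Lox had a log2 fold change of 2.93 (q = 0.00246), Loxl2 of 2.44 (q = 8.88e-05), Loxl3 of 2.30 (q = 0.00211) and Loxl1, the family member tied to elastin renewal, of 2.25 (q = 0.00343). Loxl4 had 1.28 with q = 0.0672. ADAMTS and ADAMTS-like proteins steer fibrillin assembly, and 5 of 9 were higher in SMCs, led by Adamtsl3 (2.26, q = 4.82e-05), Adamtsl5 (1.87, q = 0.0363), Adamtsl4 (1.81, q = 0.0410) and Adamtsl2 (1.76, q = 0.00832), while Adamts6 was higher in pericytes (log2 fold change -0.62, q = 0.0159), a call lost with the replicate block, TPM scaling or an intensity trend. Of 9 folding enzymes and matrix proteoglycans, 7 were higher in SMCs, among them Bgn (biglycan, 3.40, q = 6.41e-05), Serpinh1 (the collagen chaperone HSP47, 2.85, q = 0.000239), Fkbp9 (2.76, q = 3.2e-05) and P4ha2 (2.37, q = 0.00103). The ADAMTS and ADAMTS-like count was 3 without pericyte replicate 1 or 2 or without SMC replicate 3 or 4. Of the proteoglycans, Dcn (decorin) was listed at 0 in all 4 SMC libraries and at 1165, 1115, 509 and 571 FPKM in pericyte replicates 1 to 4. A 0 in these files can be a failed estimate, since Ubb, a gene used by every cell, is listed at 0 in all 8 libraries, so no fold is given for Dcn; unlike Ubb, Dcn is at 0 in SMCs alone.

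Receptors and proteases followed. Of 12 cell surface receptors for microfibrils and elastin, 3 were higher in SMCs, namely Itga8 (1.94, q = 0.0185), Itgb1 (1.60, q = 0.00908) and Itgb5 (1.303, q = 0.0458), the other 9 were not called, and the median log2 fold change was 0.14. Proteases that cut elastin went both ways, with 5 of 12 higher in SMCs and 4 higher in pericytes. The SMC side held Ctsk (cathepsin K, 3.92, q = 0.000745), Mmp2 (3.08, q = 0.000711), Mmp14 (2.37, q = 0.00294), Ctsl and Ctsb. The pericyte side held Elane (-4.82, q = 0.0257), Ctsg (-4.00, q = 0.0418) and Prtn3 (-3.94, q = 0.0402), the granule proteases of neutrophils and their precursors, and Ctss (-1.60, q = 0.00144), the cathepsin of antigen-presenting cells. The count of 4 was 1 without pericyte replicate 1, 2 or 3 or without SMC replicate 3 or 4, and 2 without pericyte replicate 4. Of 7 protease inhibitors, 6 were higher in SMCs, led by Timp1 (3.71, q = 0.0261), Timp4 (2.51, q = 0.00825), Timp3 (2.17, q = 0.0439) and Timp2 (1.88, q = 0.00371), and Slpi, an inhibitor of neutrophil elastase, was higher in pericytes (-3.10, q = 0.00880).

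**Figure D3:**
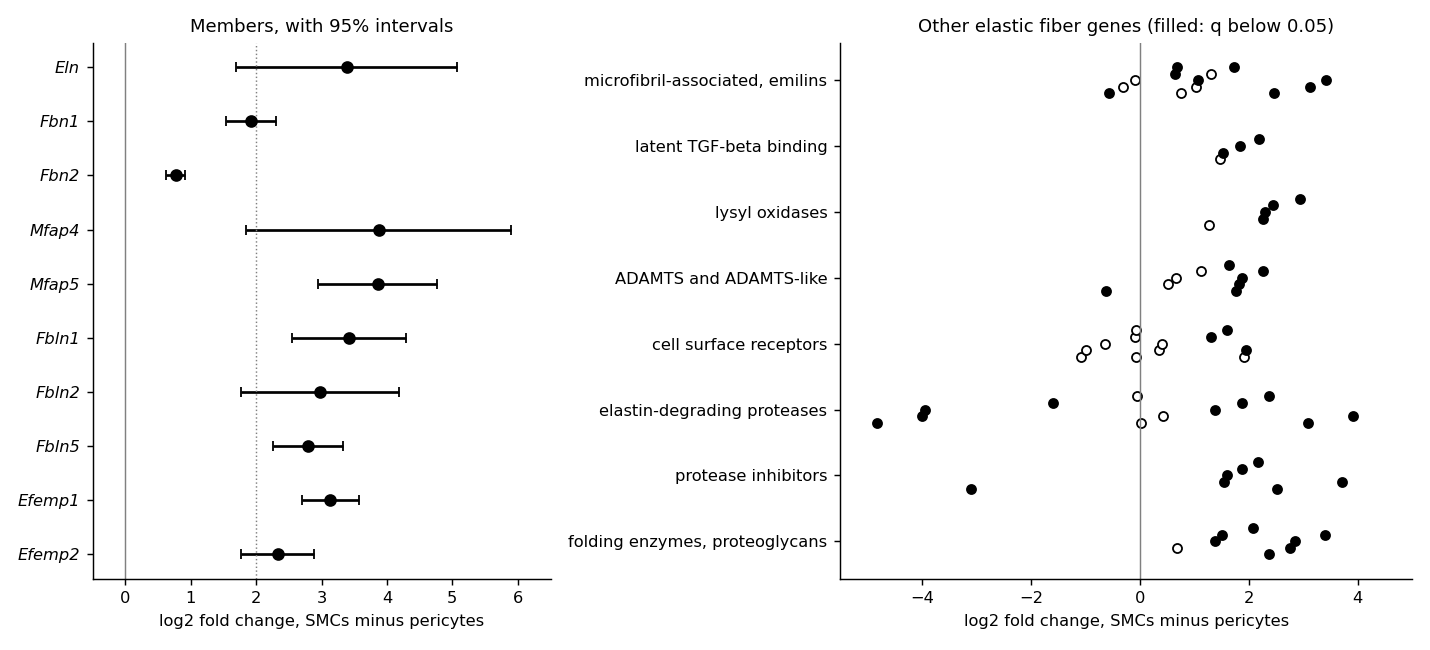
Log2 fold change, SMCs minus pericytes, on log2(FPKM + 1). Left, the 10 genes with 95% intervals and the fold threshold of 2 as a dotted line. Right, the 8 lists of other elastic fiber genes, 1 point a gene, filled where q was below 0.05 in limma, with Dcn, listed at 0 in all SMC libraries, left out. Lysyl oxidases, folding enzymes and inhibitors lie mostly right of 0, receptors around 0 and proteases on both sides.

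Markers of other cells moved with the same contrast and are given beside these counts. Of 16 markers of fibro-adipogenic progenitors, the PDGFRα+ fibroblasts of muscle, 11 were higher in SMCs and 3 (Dcn, Gsn and Thy1) in pericytes. The calls of Dcn and Gsn rest on SMC values that are all listed at 0. The 16 markers summed to 2105 to 3213 FPKM in pericytes and 6700.3 to 9329 FPKM in SMCs. Without Gsn and Dcn, listed at 0 in every SMC library, the other 14 summed to 846 to 1199 FPKM in pericytes. Pdgfra itself had 1.19 to 4.26 FPKM in pericytes and 36.1 to 46.8 FPKM in SMCs. Tendon markers were higher in SMCs for 8 of 9 genes, with sums of 260.02 to 874 FPKM in pericytes and 3166 to 4829.5 FPKM in SMCs. Endothelial markers were higher in SMCs for 8 of 10 genes, Pecam1 (CD31) among them, at 104 to 177 FPKM in sum in pericytes and 412 to 1318 FPKM in SMCs. Leukocyte markers were higher in pericytes for 9 of 13 genes, Ptprc (CD45) among them, and in SMCs for 1, Emr1, with sums of 5942 to 10016 FPKM in pericytes and 1052 to 1702 FPKM in SMCs. In the fit without the replicate block, none of 10 smooth muscle markers had q below 0.05. Their sums were 610 to 1915 FPKM in pericytes and 1796 to 5841 FPKM in SMCs. Of 12 pericyte markers, 3 (Ndufa4l2, Vtn and Rgs5) were higher in SMCs, none was higher in pericytes, and the sums were 78.8 to 179 FPKM and 225 to 619 FPKM. The smooth muscle and pericyte markers thus showed no difference past the threshold in the direction of the labels in this fit. No blocked values are given for these lists. At each replicate number, Acta2, Smtn, Mylk, Lmod1 and Des were higher in SMCs. Tagln, Myh11, Cnn1, Myocd and Actg2 were not higher at every number. Of the pericyte markers, all but Higd1b were higher in SMCs at each number.

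Of the remaining lists, none of 6 Schwann cell markers had q below 0.05, with sums of 103 to 659 FPKM in pericytes and 113 to 349 FPKM in SMCs. Of 9 skeletal muscle fiber and satellite cell markers, 1 (Mylpf) was higher in pericytes. Among 10 tested genes used by every cell, 5 (Rplp0, Eef1a1, Tubb5, B2m and Hsp90ab1) were higher in pericytes, the opposite direction to the 10 elastic fiber genes.

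**Figure D4:**
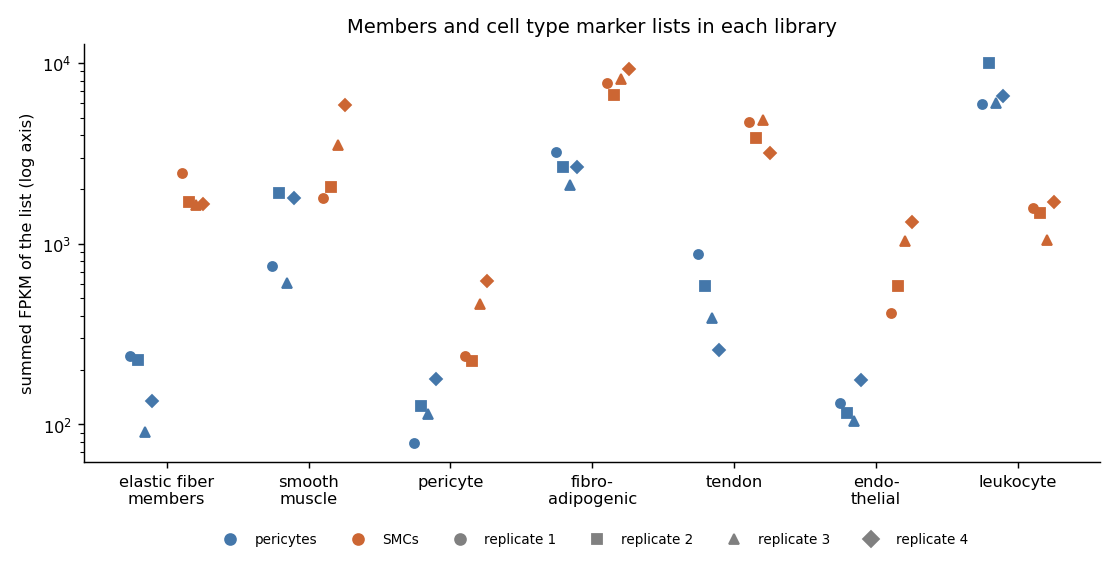
Summed FPKM (log axis) of the 10 elastic fiber genes and of 6 marker lists in each library. Points are libraries, colors are groups and symbols are replicate numbers. The elastic fiber, pericyte marker, fibro-adipogenic, tendon and endothelial sums are higher in all SMC libraries. The leukocyte sum is higher in all pericyte libraries, and the smooth muscle sum overlaps.

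The 10 genes were also set against these markers, as a description without a test. Each gene was expressed as its log2(FPKM + 1) minus the mean over a marker list in the same library. Against the 14 fibro-adipogenic markers not listed at 0, whose own mean rose by 2.39, the 10 differences between groups ran from -1.62 to 1.48 with a median of 0.66. They were 1.48 for Mfap4, 1.47 for Mfap5, 1.03 for Fbln1, 0.99 for Eln, 0.74 for Efemp1, 0.58 for Fbln2 and 0.40 for Fbln5, and -0.07 for Efemp2, -0.48 for Fbn1 and -1.62 for Fbn2, the last on a scale that compresses it. Taking in the 2 markers listed at 0, the differences were -0.12 to 2.97 with a median of 2.16. Against the 9 tendon markers, whose mean rose by 2.98, they were -2.20 to 0.89 with a median of 0.08, Fbn1 (-1.06) and Fbn2 (-2.20) having the lowest values. Against the 10 smooth muscle markers, whose mean was 1.14 higher in SMCs (none with q below 0.05), they were -0.37 to 2.73 with a median of 1.91. Against the 10 endothelial markers, whose mean rose by 2.59, they were -1.82 to 1.28 with a median of 0.46. Set against the 14 fibro-adipogenic markers, the groups overlapped for 5 of the 10 genes, Mfap4, Fbln1 and Eln among them. The groups overlapped for 8 genes with the tendon markers, 6 with the smooth muscle markers and 9 with the endothelial markers. What part the cells behind any of these markers have in the values of the 10 genes was not tested.

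The genes most like the 10 were sought among 13603 others averaging 1 FPKM or more, by Pearson correlation over 8 libraries with the mean of the 10 standardized values. The 5 closest were Adamtsl3 (r = 0.998), Col5a2 (0.997), Lama2 (0.997), Bgn (0.997) and Agmo (0.995). Adamtsl3 and Bgn were also in the lists above, and Col5a2 and Lama2 encode a fibrillar collagen chain and a laminin chain. After subtraction of group means, the 5 genes closest to Eln were Mertk (0.991), S1pr3 (0.986), Ank3 (0.985), Zfyve1 (0.983) and Trpv1 (0.982). With 8 libraries and so many genes, correlations of this size are a ranking and carry no test.

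Exon layout, which the choice of genes did not use, differed among the 10 genes. Extracellular modules such as the EGF-like domains of fibrillins and fibulins are often encoded by exons whose length is a multiple of 3, which can be skipped or repeated without shifting the reading frame. Of the 226 inner coding exons of the 10 genes in the annotation of NCBI Build 37, 196 (86.7%) had such a length, against 40.9% of 156401 inner coding exons over all genes. Eln had 35 of 35, Fbn1 and Fbn2 60 of 63 each, Fbln2 11 of 15, Fbln1 10 of 15, Mfap5 5 of 7, Fbln5 5 of 9, Efemp1 and Efemp2 5 of 8 each, and Mfap4 0 of 3. Eln, Fbn1 and Fbn2 thus held 155 of their 161 inner exons in this form (96.3%), and the other 7 genes 41 of 65 (63.1%). Exons of Fbn1 overlap Gm9913 on the opposite strand over 2442 bases (mean 0.108 FPKM), and Mfap4 overlaps Mapk7 over 89 bases (8.10 FPKM). Whether reads were counted by strand is not given in the sources used here, so reads of these pairs cannot be told apart.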

How the data were processed

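RNA from 4 pericyte and 4 SMC libraries was amplified with the SMART-Seq v4 ultra-low input kit, made into Nextera XT libraries and sequenced in read pairs. Amplification from low input can add noise to low values. The authors checked reads with FastQC, aligned them to NCBI Build 37 with Bowtie2 and TopHat and an Ensembl annotation, and deposited FPKM for 37979 genes; the program that computed FPKM and the strand setting are not given in the sources used here. Counting error cannot be given without read numbers.

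Groups came from the labels. The genes and lists were chosen with earlier results of these data known, and no list gets a test. Values were taken as log2(FPKM + 1) and fitted across the 27414 genes not at 0 FPKM throughout, by limma 3.58.1 (lmFit, eBayes; R 4.3.3), with Benjamini-Hochberg adjustment. The threshold was q below 0.05, and the stricter call added a log2 fold change above 2, the cutoffs given in the study's results. The fit was tested on simulated data. Intervals are 95%. All p-values measure the spread between libraries, each pooled from several sorts. No pair of libraries held the same values.

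Named genes were the 10 genes, up to 4 genes by fold change from each list with q below 0.05, genes listed at 0 in a group, and the 5 closest genes to the mean of the 10 genes and to Eln by correlation; such lists for Mfap4, Mfap5 and Fbln2 were computed and are not given. Others, such as genes that missed q below 0.05, Ctsl, Ctsb, Ltbp3 and the called markers, were named after their values were seen. Where a symbol had 2 identifiers, the one with the higher mean was used. Positions and exons came from GENCODE on NCBI Build 37, which holds 37195 of the identifiers, and promoters from RefSeq on GRCm38.p6. The alternatives tried were 0.1 in place of 1 as pseudocount, only genes that reach 1 FPKM in 4 libraries or more, no filter, 3 scalings, the replicate block, replicates 1 and 2 against 3 and 4 as a covariate, an intensity trend, robust variances, limma treat and each library left out. Fits on replicates 1 and 2 or on 3 and 4 alone were chosen after seeing the data. Some list genes were not used here. Python 3.11.15 with pandas 2.3.3 and matplotlib 3.10.9 made the tables and figures.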

Additional observations from a re-analysis of the deposited data

How the results depend on the processing

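Limma treat aside, each of the 10 genes kept its direction and q below 0.05 in all 179 values computed under the alternatives named in the methods. The highest limma q was 0.0470 (Mfap4, a library left out). Fbn2 was not tested with the filter at 1 FPKM. Without 1 library at a time, log2 fold changes ran from 2.95 to 3.81 for Eln and from 3.30 to 4.41 for Mfap4, the least steady, and from 0.74 to 0.80 for Fbn2. Of 20 values from 2 libraries a group, 17 kept their call, and Eln (2.80), Fbn2 (0.76) and Fbln2 (2.25) lost it with replicates 1 and 2 alone. The count of 8 genes past both thresholds was 1 with limma treat, 10 with a pseudocount of 0.1, 9 with TPM scaling, 6 with replicates 1 and 2 alone, and 8 to 9 without 1 library. No value reversed.

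Among the other lists, counts higher in SMCs moved both ways. They were 9 with the replicate block or the covariate, 4 without a filter and 4 to 6 without 1 library, against 7, for microfibril-associated and emilin proteins, 4 with the block, the covariate, a pseudocount of 0.1 or the filter at 1 FPKM and 1 to 3 without 1 library, against 3, for latent TGF-β binding proteins, and 7 with quantile scaling or the covariate, 3 without a filter and 3 to 5 without 1 library, against 5, for ADAMTS and ADAMTS-like proteins. Counts higher in pericytes were 0 with a pseudocount of 0.1, TPM scaling, the replicate block or an intensity trend and 0 to 1 without 1 library for microfibril-associated and emilin proteins. They were 0 with TPM scaling, the replicate block or an intensity trend for ADAMTS and ADAMTS-like proteins, and 1 without a filter and 1 to 4 without 1 library for elastin-degrading proteases. The cause was not tested. TPM scaling moved the median log2 fold change of genes averaging 1 FPKM or more from -0.05 to 0.16.

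Deviations from the group means correlated, across 13612 genes, at 0.327 on average between pericyte and SMC libraries of the same number (0.0794 to 0.474 over 4 pairs). Between libraries of other numbers the correlations were -0.451 to 0.538. Of 8 libraries, 5 correlated best with their own number. The main fit did not take the numbers as pairs, and whether they mark shared sorts was not tested. A fit with the replicate block gave 6153 genes with q below 0.05 against 5977 without it, all 10 genes among them, with q from 0.00166 to 0.0155.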
